A study of Mus musculus with 2 samples.

Results

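The genes described here are 57 mouse homeobox and paired-box genes outside the Hox clusters, all of them regulators of embryonic patterning. They were taken from a fixed list of names, and all 57 were found among the 21887 protein-coding genes of the annotation. The list was not ranked or filtered by a measured value, but earlier results of these data were known when it was chosen. The study mapped H3K4me3, a histone modification typical of promoters, in prospermatogonia, which are fetal germ cells of the male. Cells carrying an Oct-GFP reporter were sorted from embryos at E17.5, and 130000 of them went into each CUT&RUN reaction, in which an antibody guides a nuclease to chromatin and the freed fragments are sequenced. There was 1 H3K4me3 library and 1 IgG library, and neither a genotype nor a treatment is given for the cells. The data analysed were the authors' peaks of the H3K4me3 library. No values of the IgG library were used here, so no comparison between conditions and no test was possible.

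A homeobox encodes the homeodomain, a DNA-binding fold, and a paired box encodes a second kind of DNA-binding domain; Pax proteins carry the paired domain with or without a homeodomain. The encoded factors set position and cell identity in the head, neural tube, limbs and internal organs. In embryonic stem cells and germ cells the CpG-rich starts of such genes commonly carry H3K4me3 together with H3K27me3, a Polycomb mark, an arrangement called bivalent. H3K27me3 and RNA were not measured in the data used here.

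The list held 135064 peaks, with a median width of 572 bp and a median fold of 6.0. Fold is the summit pileup over the local background, both in fragments and each with 1 added. Both parts were recovered from the deposited fold and p of each peak, and the median pileup was 27 fragments and the median local background 3.0. In this list the local background above its floor of 2.11 moved in steps that a 10 kb window of the same library would give, and it is read here as the mean density around the summit. No source used here tells whether the IgG library entered the calling, and each background and density per 10 kb below rests on that reading. On it, a low fold can stand beside a high pileup where the surroundings are also rich in fragments. Of 12 male germ cell genes, 10 had a peak within 1000 bp of an annotated end, as 74.5% of all protein-coding genes did, and Nanos2 and Nanos3 had none there. Of Sertoli cell genes 6 of 7 had one, of Leydig and interstitial genes 2 of 7, and of endothelial and blood genes 1 of 5, so these counts do not settle which cells the library held. Star, Cyp17a1, Hsd3b1 and Csf1r had no peak at all in their windows. The part of other cell types in the values below was not tested.

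The 4 promoters below stand for the most and the least covered members with a promoter sequence. Pax2, needed for kidney, ear and optic nerve, and Isl1, a LIM factor of motor neurons, heart and pancreas, had the most bases under peaks, and their start bases lay inside a peak. En1, which patterns the midbrain-hindbrain boundary and the ventral limb, and Irx3, a factor of neural tube and heart, had the least, with no peak within 1000 bp of the start. Each line gives the 250 bases before the 5′-most start site, 5′ to 3′ on the gene's strand, from RefSeq on GRCm38.p6 (the assembly behind mm10). CpG dinucleotides are in capitals.
Pax2: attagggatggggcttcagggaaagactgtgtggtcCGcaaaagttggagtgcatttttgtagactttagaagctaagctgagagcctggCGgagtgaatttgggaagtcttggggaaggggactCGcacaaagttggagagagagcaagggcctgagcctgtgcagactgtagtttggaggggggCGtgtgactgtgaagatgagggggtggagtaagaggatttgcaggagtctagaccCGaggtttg
Isl1: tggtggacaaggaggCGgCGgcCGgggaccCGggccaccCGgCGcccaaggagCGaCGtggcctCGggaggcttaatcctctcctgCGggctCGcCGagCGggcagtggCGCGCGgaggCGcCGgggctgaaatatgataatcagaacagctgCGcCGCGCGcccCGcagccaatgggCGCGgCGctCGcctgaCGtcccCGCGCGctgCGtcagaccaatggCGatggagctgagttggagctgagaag
Irx3: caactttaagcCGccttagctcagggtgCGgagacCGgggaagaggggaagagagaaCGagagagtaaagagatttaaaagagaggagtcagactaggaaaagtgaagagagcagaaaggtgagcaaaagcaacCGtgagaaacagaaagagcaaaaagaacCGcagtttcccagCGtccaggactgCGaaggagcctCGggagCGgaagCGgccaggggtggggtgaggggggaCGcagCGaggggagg
En1: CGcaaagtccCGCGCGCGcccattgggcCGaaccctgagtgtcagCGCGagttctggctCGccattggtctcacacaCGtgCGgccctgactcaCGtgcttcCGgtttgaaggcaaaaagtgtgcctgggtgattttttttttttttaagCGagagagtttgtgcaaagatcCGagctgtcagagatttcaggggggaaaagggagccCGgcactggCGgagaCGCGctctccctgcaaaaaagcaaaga

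The Pax2 stretch lay at chr19:44746351-44746600 on the plus strand and held 5 CpG, and the Isl1 stretch at chr13:116309689-116309938 on the minus strand held 33. The Irx3 stretch at chr8:91801655-91801904 on the minus strand held 13 CpG, and the En1 stretch at chr1:120602237-120602486 on the plus strand held 19. The sparsest of the 4 in CpG thus belonged to the gene with the most bases under peaks, and both genes with the least held more. That order is in bp and not in share of the window. Peaks covered 5.98% of the 101669 bp window of Pax2 and 25.9% of that of Isl1. They covered 8.92% of the 13144 bp window of Irx3 and 3.26% of that of En1. Over the 300 bases from 250 before to 50 after the start, the 41 members with a sequence had a median of 18 CpG and a median observed over expected CpG of 0.747, against 13 and 0.577 over all 17492 protein-coding genes with one.

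All 57 members had at least 1 H3K4me3 peak in the gene or its 5 kb flanks (100%, Wilson 95% interval 93.7 to 100), where 88.3% of all protein-coding genes had one. Of the members 51 had 3 or more peaks (89.5%, interval 78.9 to 95.1), against 43.7% of all genes. The median member had 5 peaks, from 2 to 12, and all genes had a median of 2. The 322 peaks were all different, so no member borrowed a peak from another member. Counting every listed peak, the members thus held more separate peaks than the median gene.

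The peaks were also spread out. The median member had 2597 bp under peaks, from 506 to 6079 bp, against 1834 bp over all genes, and this was 12% of its window against 5.15%. Dividing each window into 10 equal parts, peaks touched a median of 5 parts in the members and 2 in all genes. From the first to the last peak the marked stretch spanned a median of 68.2% of the window, against 18.6%. In share of the window covered, 52 members lay above the median of all genes and 5 below it, En1, Pax3, Otx1, Alx4 and Lhx8.

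Members are shorter than most genes, with a median length of 8991 bp against 17169 bp, so the counts were read within length classes. Among genes under 5 kb, 81.8% of 11 members had 3 or more peaks, against 20.4% of all such genes. From 5 to 20 kb the shares were 86.7% of 30 members and 37.5%, and over 20 kb they were 100% of 16 members and 59.6%. The higher count was thus present in each class. With the windows moved 100 kb to either side, 22.8% and 21.1% of the members' windows held 3 or more peaks, below the 36.6% and 36.7% for all genes.

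**Figure D1:**
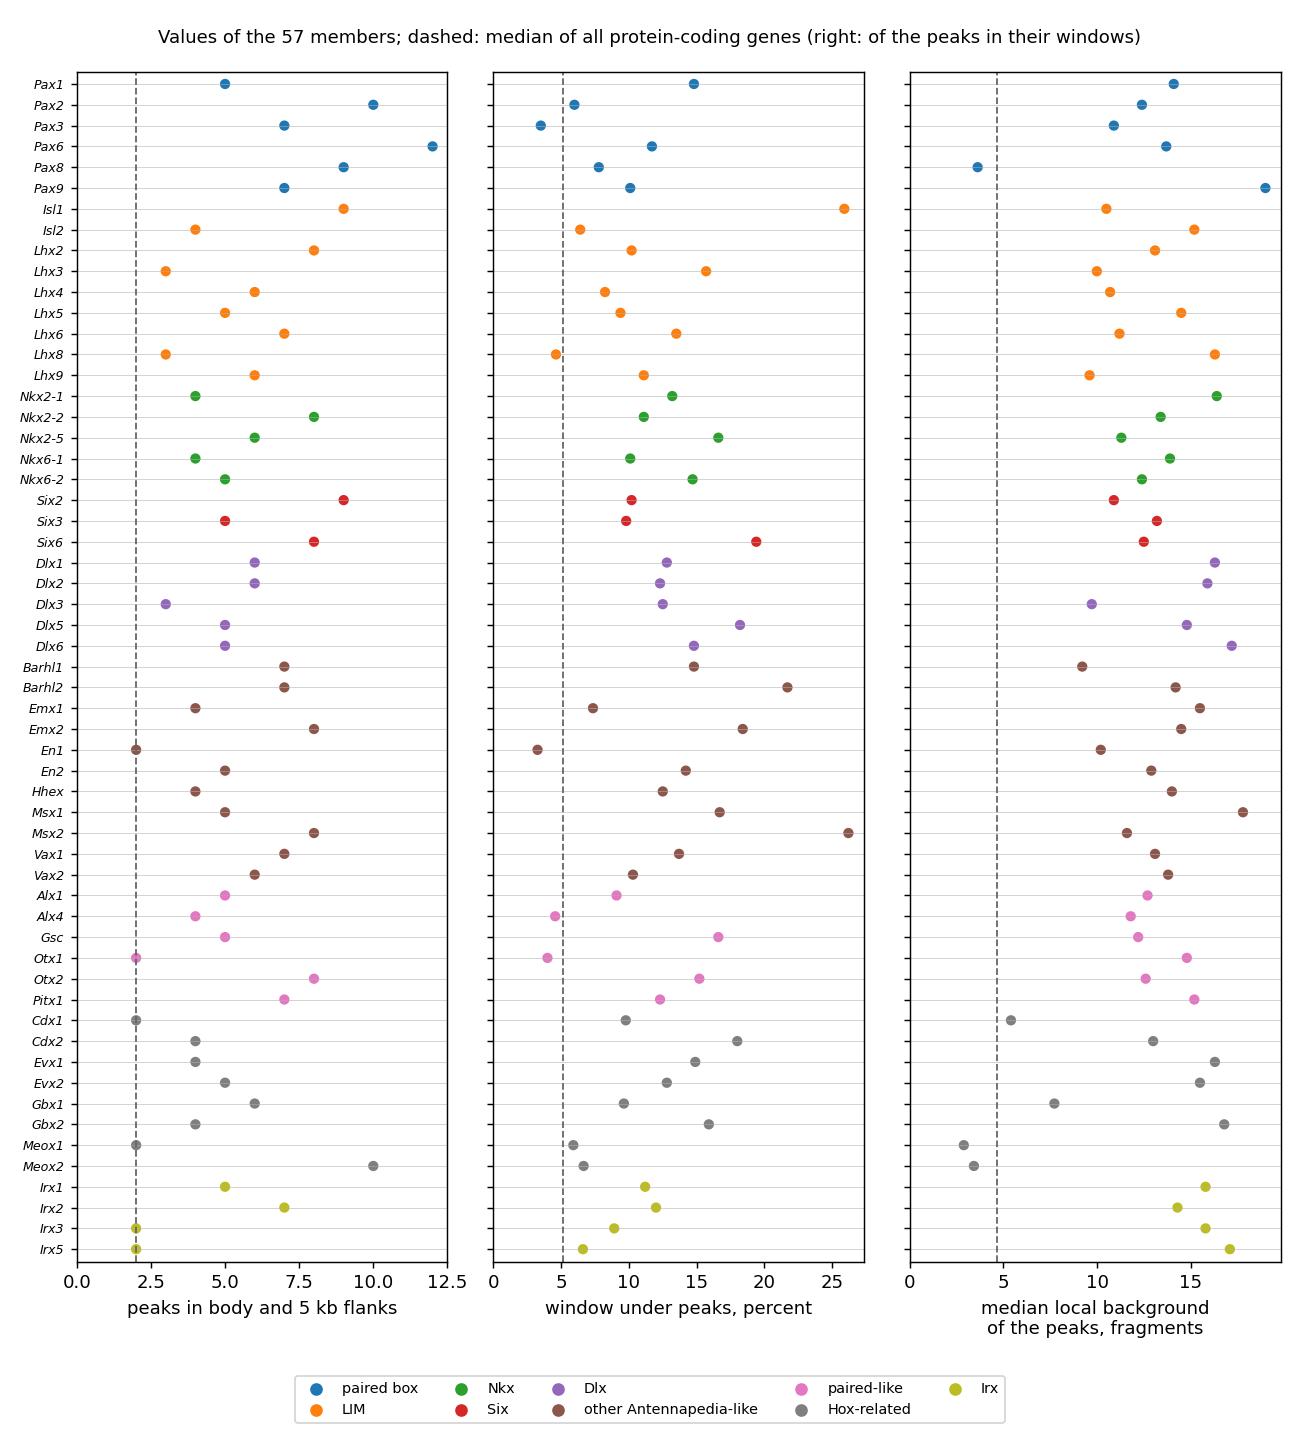
Number of peaks, percent of the window under peaks and median local background of the peaks, in fragments, for each of the 57 members, with 1 point per gene coloured by family and a dashed line at the median of all protein-coding genes (in the right panel, of all peaks in their windows). Most points lie to the right of the dashed line in all panels, and 54 members have a median background over the line.

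Paired-box genes had a median of 8 peaks, a value equalled among the 9 families by Six2, Six3 and Six6, and a median of 4157 bp covered. Pax6, the master regulator of eye development, had 12 peaks, the most of any member, and they covered 4613 bp. Its peaks were low, with folds from 2.13 to 4.25 over backgrounds of 10.4 to 18.1 fragments. Pax2 had 10 peaks and 6079 bp covered, the most of any member, in groups around the start, 9 to 14 kb inside and at the 3′ end, with 1 peak apart from these. Its summit of highest pileup, 63 fragments, stood 11015 bp inside the gene, where the background was 18.3 and the fold was 3.32.

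Pax8, a factor of thyroid and kidney, had 9 peaks covering 5060 bp. It held the member peak of highest fold, 13.5, at chr2:24460527-24460947, 14807 bp from the start, where a pileup of 41 stood over a background of 2.11. At its start the pileup was 54 and the background 11.4, so the fold was 4.42. The peak of lower fold had the higher pileup. Pax9 and Pax1, which act in the pharyngeal pouches and the vertebral column, also had lower folds at the start, 2.58 and 2.75, than at peaks 14090 and 8628 bp away, 9.95 and 7.75. The pileup was higher at the start in Pax9 (57 against 52) and lower in Pax1 (53 against 59). Pax3, a factor of neural crest and muscle precursors, has no start site in the table and had 7 peaks, the highest with a fold of 9.64.

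In the LIM homeobox family the median gene had 6 peaks and 3744 bp covered. Isl1 had 9 peaks and 5550 bp covered, 25.9% of its window, with 4 of the peaks within 1000 bp of the start. Those 4 had pileups of 34 to 46 and folds of 2.63 to 3.47. Lhx2, a factor of eye, forebrain and hair follicle, had 8 peaks over 4132 bp, a start-site fold of 4.53 and a fold of 11.7 at 29652 bp from the start. Lhx4, of pituitary and motor neurons, had 6 peaks over 5249 bp and a fold of 10.5 at 13006 bp, against 2.68 at the start. Lhx6, of cortical interneurons, had 7 peaks over 4605 bp, and peaks joined across gaps of up to 1000 bp formed a domain of 4036 bp. Lhx9, needed for the gonad to form, had 6 peaks, and Lhx3 and Lhx8 had 3 each.

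Genes Six2, Six3 and Six6 had a median of 8 peaks, and all 3 starts were marked. Six2, which keeps nephron progenitors, had 9 peaks over 3631 bp, and Six6, of retina and pituitary, had 8 over 2915 bp. In the Nkx family, of neural tube, thyroid, heart and pancreas, peaks numbered 4 to 8, with Nkx2-2 at 8. The widest joined domain of any member, 4179 bp, lay at Nkx6-2, a gene of oligodendrocytes and ventral neurons. Dlx genes, of forebrain, jaw and limb, had 3 to 6 peaks. Dlx5 held the member peak of highest pileup, 65 fragments, in its flank, over a background of 14.8 and with a fold of 4.17. After Pax2 and Pax1, the next pileups were 57 fragments each at Pax9, Otx2, Isl1 and Irx3.

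The group of En, Emx, Msx, Vax, Barhl and Hhex genes had a median of 6 peaks. Msx2, of skull, teeth and limb, had 8 peaks over 4165 bp, 26.2% of its window and the highest share of any member. Vax2, of the ventral eye, had 6 peaks over 3816 bp, and Emx2, of cortex and urogenital tract, had 8 over 3062 bp. En1 stood at the other end with 2 peaks and 506 bp, the least of any member. Otx2, needed for the head, had 8 peaks over 3178 bp, while its relative Otx1 had 2 over 673 bp.

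Irx genes had the lowest family median, 3.5 peaks, with 2 each for Irx3 and Irx5 (1173 and 903 bp covered). Isl2, the relative of Isl1, was the fifth of the 5 least covered members, with 1218 bp in 4 peaks. The genes nearest to Hox in sequence (Cdx, Evx, Gbx, Meox) had a median of 4. Within that group Meox2, of somites and vessels, had 10 peaks over 5397 bp, but 6 of them lay 42974 bp or more from the start with backgrounds of 2.11 to 3.82. Its relative Meox1 had 2 peaks, both in backgrounds under 4. The 6 members with exactly 2 peaks, the fewest of any member, were En1, Otx1, Cdx1, Irx3, Irx5 and Meox1.

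Joined across gaps of up to 1000 bp, the peaks of 21 members formed a domain of at least 2000 bp (36.8%, interval 25.5 to 49.8), where 23.1% of all genes had one. With a gap of 500 bp the order turned, to 12.3% of members and 16.9% of all genes. The widest single peak of a member was 1839 bp, at Irx2, so no member reached 2000 bp without joining peaks.

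Marking at the start itself was close to that of other genes. Of the 41 members with a start site in the table, 32 had a peak within 1000 bp of it (78.0%, interval 63.3 to 88.0), against 72.1% of all genes, and within 500 bp the order turned, to 65.9% against 70.2%. The start base itself lay in a peak in 15 of 41 members (36.6%, interval 23.6 to 51.9), against 57.8%. Along the start, the share of members covered reached 32.8% at 700 bp into the gene, and that of all genes 58.4% at 100 bp. From 2 to 5 kb away the members' mean was 11.6% and that of all genes 2.78%. The members' coverage was thus lower than usual at the table's start site and higher than usual around it. In some members that start lay inside the annotated extent of the gene, as given below.

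**Figure D2:**
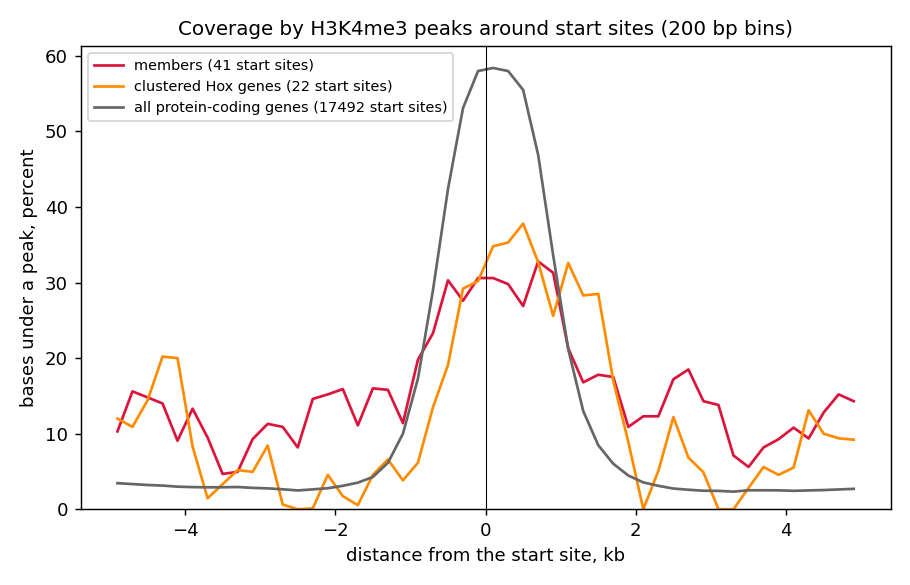
Percent of genes with a peak at each position in 200 bp bins, from 5000 bp before to 5000 bp after the start site, for the 41 members, the clustered Hox genes and all protein-coding genes with a start in the table. The line of all genes forms a narrow crest of 58.4%, and the members' line stays at or under 32.8% and falls off more slowly.

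The listed peaks at the members' starts were short and low in fold but not low in pileup. In each gene the peak of highest pileup within 1000 bp of the start was used. Its pileup had a median of 45.5 fragments in the 32 marked members, from 33 to 57, against 42 over the 12612 marked genes. Its local background had a median of 15.7, from 6.21 to 21.5, against 6.02, which corresponds to 994 fragments in 10 kb against 381. Its fold was 2.86 against 6.10, and its width 485 against 1161 bp. At least 10 fragments of background were found at 30 of the 32 members (93.8%, interval 79.9 to 98.3), against 8.79% of all marked genes. Only listed peaks enter these pileups. The lowest listed pileup was 15 fragments at a background of 5 to 7 and 31 at 14 to 16. Members thus faced a higher limit than most genes, so the medians of 45.5 and 42 do not compare pileups on equal terms.

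A fold of at least 4 was reached at the starts of 4 of the 32 members (12.5%, interval 4.97 to 28.1), against 90.9% of all marked genes. These were Barhl1 (4.72), Lhx2 (4.53), Pax8 (4.42) and Lhx6 (4.03), and Barhl1, of hearing and cerebellum, had the lowest background of the 32. The highest backgrounds were at Pax9 (21.5), Six3 of the forebrain (19.9) and Msx1 of teeth and palate (19.4), with pileups of 57, 47 and 56. The counting interval of the Pax9 pileup ran from 43.2 to 73.9 and that of Barhl1, at 33, from 22.7 to 46.3. The intervals shared only the stretch from 43.2 to 46.3, and whether the pileups differ was not tested.

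**Figure D3:**
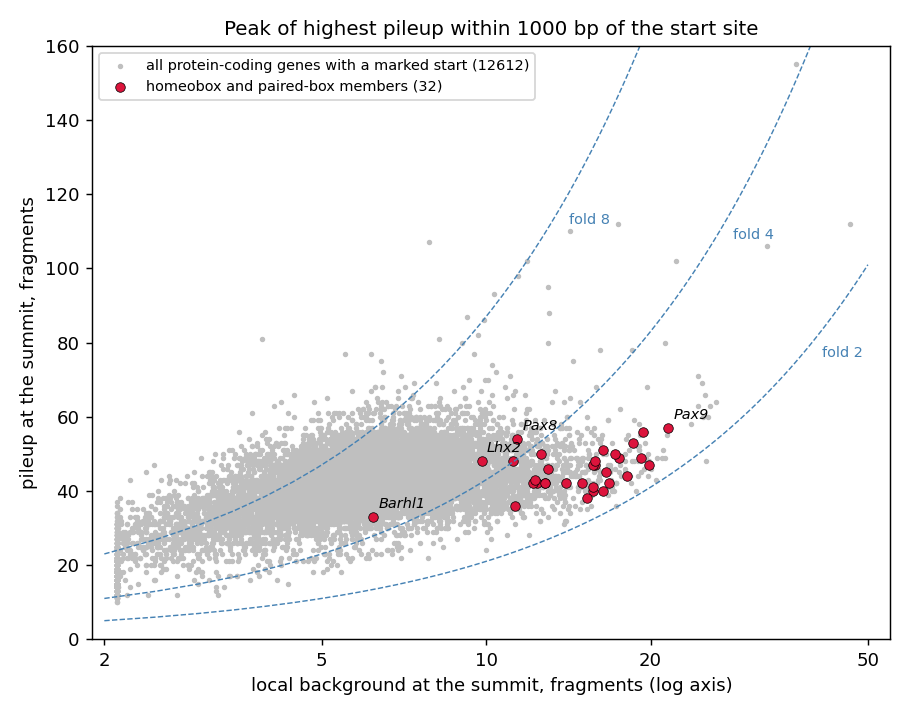
Summit pileup against local background, both in fragments, of the start-site peak of each marked protein-coding gene, with the 32 members coloured and lines of equal fold. The members lie at backgrounds of 6.21 to 21.5, to the right of most genes, at pileups of 33 to 57.

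Within bands of like background the start-site peaks were set beside those of genes that are not members. With backgrounds of 10 to 14 fragments, 11 members had a median fold of 3.25 and width of 695 bp, and 875 other genes 3.69 and 756 bp. From 14 to 18, 13 members had 2.68 and 390 bp, and 155 other genes 2.87 and 421 bp. From 18 to 22, 6 members had 2.53 and 276 bp, and 35 other genes 2.49 and 303 bp. Median fold and width fell from band to band in both groups. The start base lay in a peak in 90.9% of members and 62.6% of other genes in the 10 to 14 band, 15.4% and 39.4% in the 14 to 18 band, and 50% and 45.7% in the 18 to 22 band, so that share did not differ in 1 direction. At 4 to 8 fragments there was 1 member, Barhl1, with a fold of 4.72 and a width of 229 bp, and 8069 other genes had medians of 6.32 and 1315 bp. Lhx2, at 9.81, fell between the bands.

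The lowest pileup listed as a peak also rose with the background, from 9 fragments at a background of 2 to 3, to 24 at 10 to 12, 31 at 14 to 16 and 37 at 18 to 22. A summit under such a limit is not listed, so a start without a peak at high background may still hold fragments. No peak within 1000 bp of the start was found at 9 members: Lhx3, Nkx2-2, Nkx2-5, En1, Otx2, Evx2, Gbx2, Irx2 and Irx3. In all 9 the nearest peak began under 5 kb away, from 1113 bp at Otx2 to 4478 bp at En1, and its background was between 9.99 at Lhx3 and 21.4 at Nkx2-2. Those backgrounds belong to the nearest peaks, and the background at the 9 starts themselves was not measured. A summit below the limit at a start would not be listed, so a summit there is not shown to be absent. At Nkx2-2, Nkx2-5, Evx2 and Irx2 the table's start lay over 1000 bp inside the annotated extent of the gene. Each of them had a peak within 1000 bp of its annotated 5′ end. The same held for the table's start at the marked members Pax1, Pax9, Lhx4, Lhx9, Six3, Dlx1, Isl2 and Barhl1, over 1000 bp inside. Of the 41 members with a start site, 39 had a peak within 1000 bp of either annotated end, against 74.5% of all protein-coding genes.

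For the 16 members without a start site in the table, a peak lay within 1000 bp of either annotated end in 13, and 75.1% of all genes without a start had one. The exceptions were En2, Irx5 and Meox1. The ends of these genes cannot be told apart as start or 3′ end here.

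**Figure D4:**
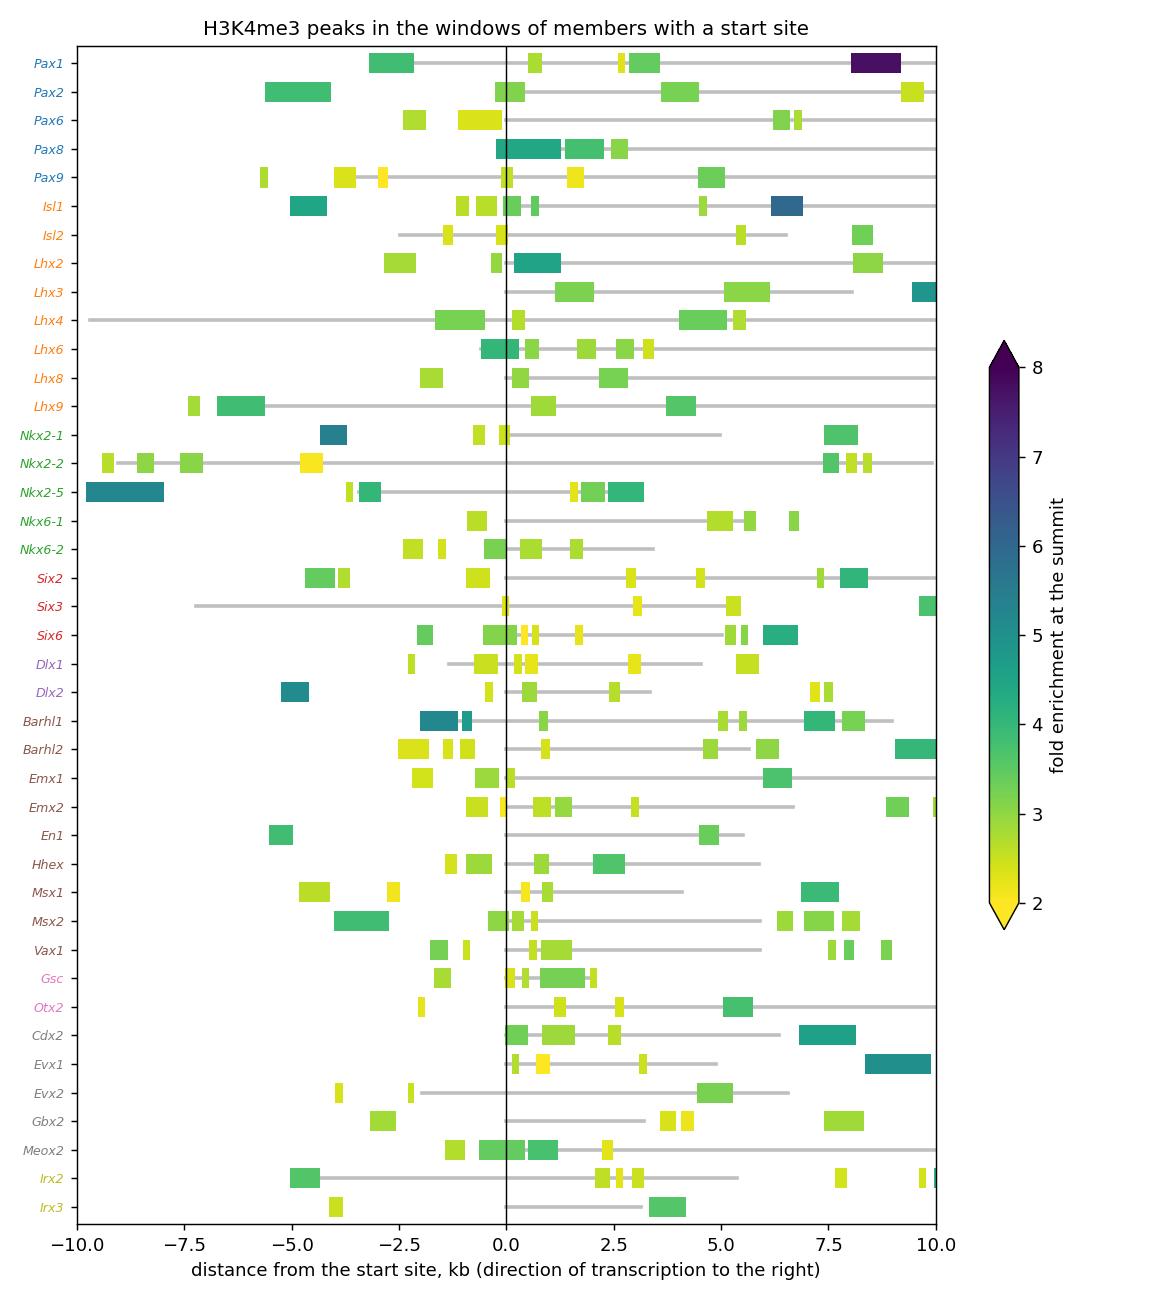
Peaks of each of the 41 members with a start site, within 10 kb of the start, drawn to scale by distance in kb and coloured by fold, with the annotated gene as a grey line. Peaks near the starts are mostly of low fold, and of the 12 peaks with a fold of 7 or more the map shows the one of Pax1 at 8628 bp.

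High-fold peaks of the members lay away from their starts. Within 1 kb of the start, 4 of 56 member peaks had a fold of at least 4 (7.14%, against 79.0% of the peaks of all genes in that band). From 1 to 5 kb it was 5 of 85 (5.88% against 51.6%), and beyond 5 kb 38 of 110 (34.5% against 85.3%). The median background of the members' peaks went from 14.4 through 14 to 10.3 fragments over these bands, and from 6.21 through 7.57 to 3.25 for all genes. All 12 member peaks with a fold of at least 7 in genes with a start, in 9 genes, lay between 8628 and 69591 bp from it, with a median background of 3.0 and none above 6.75. Over all genes, 3565 peaks with such a fold lay within 1 kb of the start, 967 from 1 to 5 kb and 10066 beyond 5 kb. Beyond 5 kb was thus the band with most such peaks in all genes too.

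Counted over whole windows, 35 of the 57 members held a peak with a fold of at least 4 (61.4%, interval 48.4 to 72.9), against 85.4% of all genes. Restricting the list to such peaks turned the order of members and all genes in the shares with any peak, 3 or more peaks, a wide domain and a marked start, and in the medians of peaks, covered bp and window parts. Members then had a median of 1 peak and all genes 2, and 9.76% of members against 65.6% of all genes were marked at the start. Whether members appear more or less marked than other genes therefore depended on whether peaks were counted in full or by fold.

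**Figure D5:**
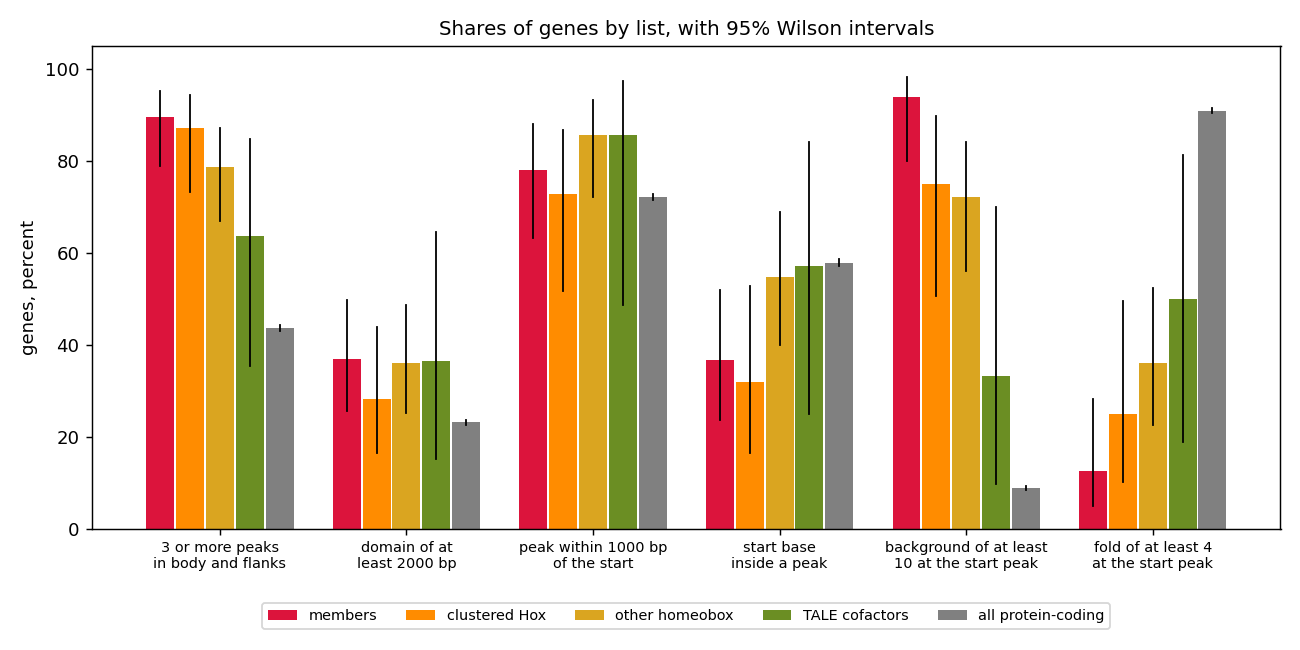
Percent of the homeobox and paired-box members, the clustered Hox genes, the other homeobox genes, the TALE genes and all protein-coding genes that met each description, with Wilson 95% intervals for counting error. Members exceed all genes in windows with 3 or more peaks (89.5% against 43.7%) and in start-site background of at least 10 (93.8% against 8.79%), and fall below them in start-site fold of at least 4 (12.5% against 90.9%).

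Related genes were read the same way for comparison. Of the 39 clustered Hox genes, 34 had 3 or more peaks (87.2%, interval 73.3 to 94.4), and their marked starts had a median background of 14.1 and a median fold of 2.77. Of 61 other homeobox and paired-box genes, 48 had 3 or more peaks (78.7%, interval 66.9 to 87.1), with a start-site background of 12 and fold of 3.61. The 11 TALE genes, cofactors of Hox proteins, gave 7 (63.6%, interval 35.4 to 84.8), 7.99 and 3.86. The intervals of all 3 lists overlapped that of the members, so this count is not given as particular to the members. A difference between the lists was not tested.

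High CpG content, taken as observed over expected CpG of at least 0.6 with at least 55% GC, was found at 25 of 41 member promoters (61.0%, interval 45.7 to 74.3) and 41.3% of all promoters. Of these 25 members 20 were marked at the start (80.0%), against 99.5% of all genes with such promoters. Their start-site background was 15.5 against 6.40 and their fold 2.83 against 5.89. The other 16 members were marked in 12 cases (75%, against 52.8% of genes without high CpG), with a background of 16.1 and a fold of 2.92, so both promoter classes of members had low folds at high background. In the 300 bases, read on both strands, TATAAA was found in 5 of 41 members (12.2%, against 13.3% of all promoters), GGGCGG in 24 (58.5% against 46.3%) and CCAAT in 21 (51.2% against 39.2%).

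Other genes near the members could add peaks to a window. The end of another protein-coding gene lay inside the windows of 16 members, and 5 of the 17 such genes had a peak at that end. Both peaks of Cdx1, a posterior patterning gene, overlapped ends of its neighbours Slc6a7 and Gm52351, and 1 of them also overlapped an end of Cdx1. Noncoding RNA genes ended inside the windows of 34 members. Opposite-strand RNA genes named after 11 members, such as Dlx1as, Emx2os and Vax2os, numbered 12, and 8 of them had a peak at an end within the window. Those peaks cannot be assigned to the member or to its RNA neighbour from this list. The same counts over the windows of all genes are not given here, so these do not tell whether neighbours add more peaks than usual.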

How the data were processed

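H3K4me3 CUT&RUN peaks of 1 library were read against gene annotation. The submitters' processing notes name MACS2 2.1.0 (a peak caller), Bowtie2 2.5.0 (an aligner) and Trim Galore, beside deepTools 3.5.1, bedtools 2.27.1 and SAMtools 1.16.1, and the builds mm10 and sacCer3. Their settings are not given there. The authors deposited for each peak a fold enrichment (a ratio of summit pileup to background), a −log10 p, a −log10 q and a score. Peak names carry the letters IgG, and no source used here tells whether that library entered the calling. Library totals are not known here, so depth is read from pileups.

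Pileup and background were solved from fold and p (Poisson upper tail, pileups up to 2000, tolerance 0.0001), which succeeded for 135053 of 135064 peaks. All 11 unsolved peaks lay outside the members' windows. Gene extents and promoters came from RefSeq, GRCm38.p6, with 5′-most starts for 17492 genes, 41 of them members. Peaks counted where they shared 1 bp with a window. Wilson and exact Poisson intervals are at 95% and cover counting error only, because there was 1 library and no replicate. Fragments carry no molecular identifiers here.

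The members and lists were chosen with earlier results of these data known. Named genes were the 10 with most covered bp, the 10 with most peaks and ties, the 5 highest by fold and by pileup, the 5 least covered and those unmarked at the start. Further members were named with their values in view. Alternatives were stricter peaks, other flanks, overlaps, start windows and join gaps. The scripts were tested on simulated data: 4219 of 4219 pileups were recovered and 200 of 200 planted genes among 21887 called, with 0 extra. Calculations used scipy 1.17.1, pandas 2.3.3 and numpy 2.4.6 under Python 3.11.15, and plots matplotlib 3.10.9.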

Additional observations from a re-analysis of the deposited data

How the results depend on the processing

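The results hold for all listed peaks and turn with a stricter fold. With a fold of at least 4, members against all genes gave 61.4% and 85.4% with any peak, 15.8% and 29.0% with 3 or more, medians of 1 and 2 peaks, 599 and 1594 bp and 1 and 2 of 10 window parts touched, 0% and 12.6% with a wide domain, and 9.76% and 65.6% marked at the start. With a −log10 q of at least 10, an alternative chosen after seeing the data, any peak (77.2% and 84.0%), peaks (1 and 2) and covered bp (1140 and 1573) also turned, and 3 or more peaks gave 28.1% and 24.1%. The start within 500 bp (65.9% and 70.2%) and wide domains with a join gap of 500 bp (12.3% and 16.9%) turned as well. The other changes kept the direction. A −log10 q of at least 5 gave 4 and 2 peaks, and 24.6% and 20.9% with a wide domain. That members' share lay below the interval of 25.5 to 49.8 found with all peaks, and no interval was computed at this setting. With 200 bp shared, peaks were 4 and 2, and with 2 kb flanks covered bp were 1989 and 1622. No flank gave 93.0% and 81.9% with any peak, 59.6% and 26.1% with 3 or more, 3 and 1 peaks, 1172 and 997 bp, and 3 and 2 of 10 parts. Flanks of 10 kb gave 100% and 57.7% with 3 or more, 7 and 3 peaks, and 3400 and 2360 bp. A start window of 2500 bp gave 90.2% and 76.2%, and a join gap of 3000 bp gave 84.2% and 35.0%. The remaining 46 values stayed within their intervals.

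No paired analysis was possible because there was 1 library of each kind. The cause of these changes was not tested. Fold is the pileup over the background, so at like pileups it falls by definition as background rises. The lowest listed pileup was 24 fragments at a background of 10 to 12 and 37 at 18 to 22, so lower summits in such backgrounds were not listed. The background at the unmarked starts themselves was not measured.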

Other observations

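High background at the start was not confined to the members and the related lists. Of the 12612 marked starts, 223 (1.77%) had a local background of at least 14 fragments. Among them were 19 of the homeobox and paired-box members (59.4% of the 32 marked), 8 clustered Hox genes, 11 other homeobox genes and 2 TALE genes, and 183 genes were in none of these lists. The lists do not hold every homeobox gene, and Duxf3 and Pou5f1, named below, are homeobox genes outside them. The 183 are therefore not a count of genes without a homeobox. The 12 highest values of all marked starts belonged to genes outside the lists. They were Gm36327 (46.4 fragments), Duxf3 (37.0), Pou5f1 (32.7, with a pileup of 106), and Ifnz with 8 genes numbered Gm13272 to Gm13289 on chromosome 4 (24.4 to 26.4). Pou5f1 is also called Oct4, and Oct-GFP was the reporter used in the sort; the part of reporter copies in its value was not tested. The highest member, Pax9, stood at rank 15.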
